A study of Mus musculus with 18 samples.

Results

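Immune cells that carried only the Cd11c reporter (YFP) were set against immune cells that carried neither reporter (DN), across all measured genes. The members were the 5 libraries labelled YFP (replicates 1, 3, 4, 5 and 6) and the 3 labelled DN (replicates 1, 3 and 6), chosen by their sort label, out of 18 libraries of sorted aortic leukocytes. All of them came from Apoe-/- Cx3cr1GFP Cd11cYFP mice on the C57BL/6 background, male and female, 7 months old, after 5 months of Western Diet. Every library therefore shares the loss of Apoe, the diet and both reporter alleles, and no library comes from a healthy vessel. Aortas and carotid arteries were digested with enzymes, and live CD45+ cells were sorted. YFP cells were positive for YFP and negative for GFP, and DN cells were negative for both. The other 10 libraries, 6 of GFP cells and 4 of cells positive for both (DP), entered the statistical fit. Nothing in the labels ties replicates to separate mice, and the p-values therefore reflect sample-to-sample spread that may be technical in part or in whole.

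CD11c is an integrin alpha subunit encoded by Itgax, which pairs with the beta-2 subunit encoded by Itgb2. Conventional dendritic cells carry it, and so do many macrophages of atherosclerotic plaques, including lipid-laden foam cells. CX3CR1 is the receptor of the chemokine fractalkine on monocytes and many macrophages. Leukocytes of the vessel wall without either reporter can include T cells, B cells, innate lymphoid cells and granulocytes, and also macrophages in which neither reporter gene is active.

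Both reporter genes define the sort, and Cd3e, a chain of the T cell receptor complex, marks cells that a double-negative gate should hold. Their upstream windows are therefore printed here, from RefSeq on GRCm38.p6, covering bases 230 to 31 before each gene's start, 5′ to 3′ on the strand of the gene. For Cx3cr1 the RefSeq start lies downstream of the start in GENCODE vM21, from which the gene spans below are taken, so that its window falls inside the GENCODE span. Capitals mark matches to 4 motifs, each searched on both strands so that a match may show the reverse complement. A purine box, bound by PU.1 and related factors, was searched as GAGGAA. The AP-1 motif of Fos and Jun proteins was searched as TGACTCA. For GATA factors the letters were AGATAA. The E-box of basic helix-loop-helix factors was searched as CAGGTG.
Itgax, chr7:128129320-128129519, plus strand: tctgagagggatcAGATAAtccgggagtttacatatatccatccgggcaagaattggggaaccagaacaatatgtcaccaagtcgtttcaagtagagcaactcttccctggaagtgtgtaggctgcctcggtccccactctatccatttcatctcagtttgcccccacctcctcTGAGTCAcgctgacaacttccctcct
Cx3cr1, chr9:120068327-120068526, minus strand: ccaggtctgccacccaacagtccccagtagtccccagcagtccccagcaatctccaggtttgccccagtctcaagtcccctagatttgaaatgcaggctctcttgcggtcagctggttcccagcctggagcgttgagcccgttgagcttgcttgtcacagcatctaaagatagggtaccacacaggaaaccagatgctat
Cd3e, chr9:45009642-45009841, minus strand: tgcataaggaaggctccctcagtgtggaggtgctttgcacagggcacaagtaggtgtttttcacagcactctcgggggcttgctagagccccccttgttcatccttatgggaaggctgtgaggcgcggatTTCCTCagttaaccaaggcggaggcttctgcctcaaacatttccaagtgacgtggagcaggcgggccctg
The Itgax window held 1 AP-1 and 1 GATA match, the Cd3e window held 1 purine box, and the Cx3cr1 window held none of the 4. Of 32841 windows of this length, 18.7% held the purine box, 3.69% AP-1, 8.22% GATA and 14.2% the E-box. These matches describe the letters of the windows and are not evidence of binding.

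Itgax (mm10 chromosome 7, 128129547 to 128150657) was read first, as the gene behind the YFP reporter. It stood at 175, 380, 499, 1120 and 89.6 CPM (a gene's share of the effective library size, on the usual counts-per-1000000 scale) in YFP replicates 1, 3, 4, 5 and 6, against 11.4, 332 and 297 CPM in DN replicates 1, 3 and 6. In DN replicate 1 Itgax was thus nearly absent, whereas the libraries labelled DN replicates 3 and 6 lay inside the YFP range and above YFP replicates 1 and 6. Over all 5 YFP and 3 DN libraries the log2 fold change was 1.09 ± 0.87 (SE, edgeR's quasi-likelihood test with Benjamini-Hochberg adjustment, adjusted p = 1.0). GFP libraries, which should lack YFP, held 107 to 191 CPM.

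Cx3cr1 (chromosome 9, 119901616 to 120069879), the gene behind GFP, should have been low in both sorts. It stood at 0.93, 60.7, 60, 26.3 and 104 CPM in the YFP libraries in the same order, against 4.09, 142 and 134 CPM in DN replicates 1, 3 and 6. The libraries labelled DN replicates 3 and 6 were higher than every YFP library and stood where the GFP libraries did (80.9 to 165 CPM). By transcript, then, both reporter genes were low in DN replicate 1 and not in the libraries labelled DN replicates 3 and 6. Transcripts did not follow the gates elsewhere either, and whether a library matches its label was not tested. The GFP libraries overlapped the YFP libraries in Itgax. YFP replicate 6 had the lowest Itgax of its group and the highest Cx3cr1, inside the GFP range. Because the DN libraries differed, each result is given over all 3 DN libraries, against DN replicates 3 and 6, and against DN replicate 1 alone. A single library has no replicates of its own, and in that comparison it is assumed to vary like the others.

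**Figure D1:**
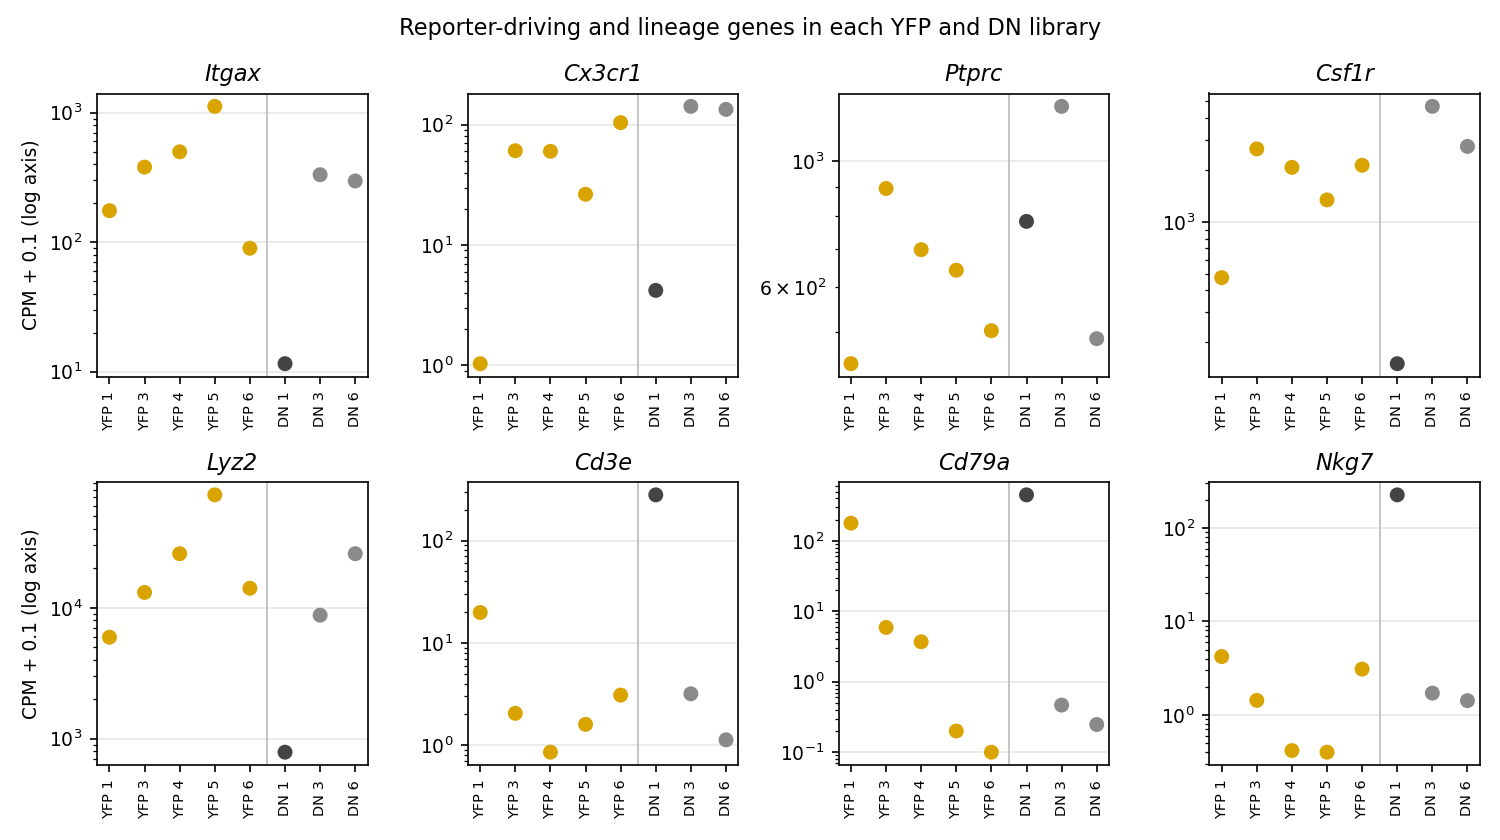
Level of 8 genes in each YFP and DN library, as CPM + 0.1 on a log axis. Each point is 1 library, YFP (yellow) left of DN (dark grey for replicate 1, light grey for replicates 3 and 6), with no error bars. In DN replicate 1 the macrophage genes Csf1r and Lyz2 are lowest (150 and 788 CPM) and the lymphocyte genes Cd3e, Cd79a and Nkg7 highest (279, 449 and 226 CPM).

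Ptprc, the gene of the CD45 antigen used for the sort, was present throughout, at 439, 895, 698, 642 and 502 CPM in the YFP libraries and 783, 1250 and 486 CPM in the DN libraries, and the groups overlapped. Apoe, which the mice lack, was listed at 20, 17.3, 23.8, 208 and 26.9 CPM in the YFP libraries and 7.42, 16.9 and 38.8 CPM in the DN libraries. The YFP libraries other than replicate 6 held 17776952 to 27742113 counts and the DN libraries 14165687 to 24723544. YFP replicate 6 held 289166 counts, so that 1 count there equals 2.99 CPM, against 0.0231 to 0.0997 CPM in the other 7 libraries. A level of 2.99 CPM in that library is 1 read and was read as no more than that. The effective library size is the library size times a TMM scaling factor. This factor was 0.445 in YFP replicate 5 and 1.75 in DN replicate 1, the lowest and the highest of the 18 libraries. It raises CPM in the former and lowers CPM in the latter, so rankings of these libraries below lean on the scaling. Genes with at least 1 count numbered 13150 to 21823 in YFP and 14545 to 21972 in DN, most of all in the libraries numbered 1 (21823 in YFP and 21972 in DN).

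Over 7377 genes averaging 20 CPM or more in YFP or in DN, whole-library likeness did not follow the sort. Pearson correlations of log2(CPM + 1), given as descriptions across genes that share libraries and depth, were 0.961 between YFP replicates 3 and 4. They were almost as high between YFP replicate 3 and DN replicate 3 (0.951) and between YFP replicate 4 and DN replicate 6 (0.945), and higher there than between DN replicates 3 and 6 themselves (0.834). DN replicate 1 correlated at 0.593 and 0.508 with DN replicates 3 and 6 and at 0.212 to 0.716 with the YFP libraries. YFP replicate 5 correlated at 0.349 to 0.518 with the other YFP libraries. Labelled DN libraries thus held a library unlike the rest and 2 libraries close to YFP replicates 3 and 4.

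**Figure D2:**
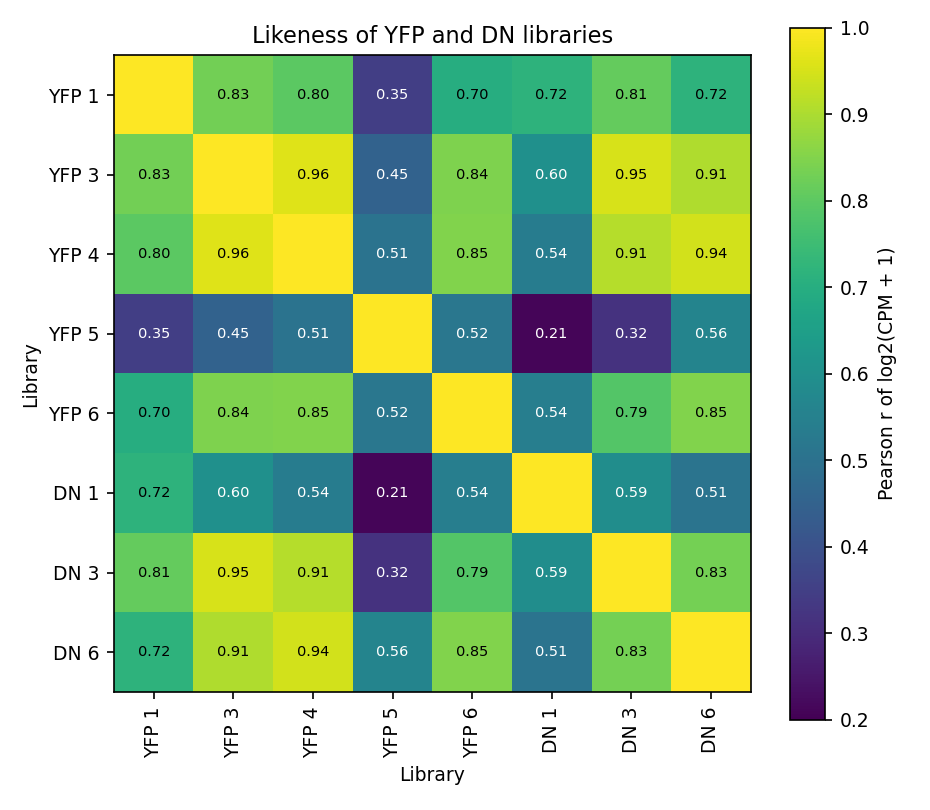
Pearson correlation of log2(CPM + 1) between the 5 YFP and 3 DN libraries over 7377 genes, YFP first on both axes. YFP replicates 3 and 4 and DN replicates 3 and 6 form a block of 0.834 to 0.961, while YFP replicate 5 and DN replicate 1 stand apart.

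Over all 3 DN libraries, the median log2 fold change was 1.06 for the foamy or TREM2-high macrophage list, -3.83 for the T cell list, -1.83 for the B cell list and -3.83 for the NK cell or ILC2 list. The lymphocyte values rested on DN replicate 1, and without it the medians of the T, B and NK cell lists were 0.67, 4.12 and 0.21. In the foamy list 2 of 17 members separated the groups. In the T, B and NK cell lists 0 of the 18, 10 and 7 members at or above 20 CPM did. Of all genes at or above 20 CPM, 0.339% were higher and 0.705% lower in every YFP library. No gene passed edgeR's test out of 17143 (percentage called 0), and 461 (2.69%) had an unadjusted p under 0.05, of which 330 (1.92%) were higher and 131 (0.764%) lower in YFP. DESeq2 called 11 genes higher and 0 lower of the 14286 it gave an adjusted p (0.077%), and limma voom called 0. The single libraries that set these differences were few. YFP replicate 5 held the highest level for 288 of the 330 genes higher in YFP, and DN replicate 1 for 127 of the 131 lower ones. Levels of YFP replicate 5 carry its low scaling factor, and how far the 288 depend on it was not tested. The median log2 fold change over all tested genes was 0.06.

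Among the 7377 genes at or above 20 CPM, 25 (0.339%) were higher in every YFP library than in every DN library, and 52 (0.705%) were lower in every one. These are descriptions of these 8 libraries, not calls, and most of the counts are larger when a library is left out, since fewer libraries must then lie in the same order. Genes higher in every YFP library numbered 56, 48, 44, 22 and 71 without YFP replicates 1, 3, 4, 5 and 6, and 67, 134 and 414 without DN replicates 1, 3 and 6. Genes lower in every one numbered 97, 116, 93, 74 and 80 without the same YFP libraries, and 270, 201 and 397 without DN replicates 1, 3 and 6.

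Cd36 and Fabp4 were among the 25. Cd36, a scavenger receptor that takes up oxidized lipoproteins, stood at 342, 628, 824, 1480 and 367 CPM in the YFP libraries, against 17.8, 231 and 278 CPM in the DN libraries. Every YFP library thus exceeded every DN library, including DN replicates 3 and 6, with a log2 fold change of 2.05 ± 0.79 (SE, with an edgeR adjusted p of 1.0). Fabp4, a fatty-acid carrier of macrophages, adipocytes and endothelium, stood at 21.8, 35.5, 44.5, 203 and 14.9 CPM in YFP and 0.647, 5.72 and 11.2 CPM in DN (3.47 ± 1.2). YFP replicate 6 lay closest to DN for Fabp4, on 5 reads. Ifi205, an interferon-inducible gene also used as a marker of cross-presenting dendritic cells in mice, followed the same order, at 53.8, 46.1, 19.1, 58 and 35.8 CPM in YFP and 1.66, 18.4 and 8.88 CPM in DN (2.15 ± 0.96). The gap between YFP replicate 4 and DN replicate 3 was narrow, 19.1 against 18.4 CPM.

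The largest non-overlapping differences rested on YFP replicate 5. Chrna5 (chromosome 9, 54980880 to 55007779), a nicotinic acetylcholine receptor subunit, stood at 109 CPM there and at 0.294, 0.76, 0.567 and 2.99 CPM in YFP replicates 1, 3, 4 and 6, against 0.0694, 0.147 and 0 CPM in DN (8.2 ± 2.07). Outside YFP replicate 5 it was at or near 0, with 1 read behind the value of YFP replicate 6. Retnla (chromosome 16, 48842551 to 48844461), a secreted product of alternatively activated macrophages, stood at 723, 585, 208, 15200 and 409 CPM in YFP and 17.6, 24.1 and 127 CPM in DN (5.93 ± 2.48). Here all 5 YFP libraries were well above 2 of the 3 DN libraries and less far above DN replicate 6.

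Nos3 (chromosome 5, 24364810 to 24384474), the endothelial nitric oxide synthase, stood at 33, 2.52, 2.71, 207 and 20.9 CPM in YFP and 2.15, 0.366 and 0.22 CPM in DN (5.82 ± 1.54). Ocln (chromosome 13, 100496507 to 100552718), which encodes the tight-junction protein occludin, stood at 4.09, 4.99, 3.72, 169 and 20.9 CPM in YFP and 0.925, 1.32 and 1.69 CPM in DN (4.96 ± 1.31). Both were again highest in YFP replicate 5. Sept3 (chromosome 15, 82274893 to 82294574), a septin, gave 23.5, 26.2, 2.83, 123 and 2.99 CPM in YFP and 1.27, 0.88 and 0 CPM in DN (5.62 ± 1.63). These 3 genes were called by DESeq2, with adjusted p of 0.00144, 0.00144 and 0.00854, and each of its 11 called genes was highest in YFP replicate 5. The other 8, chosen by their call and so after their values were seen, were Cd209e, Gp1bb, Plvap, Stmn2, Crybb1, Itga2b, Ushbp1 and Cytl1, at DESeq2 adjusted p of 0.0282 to 0.0467. Plvap, an endothelial diaphragm protein, stood at 70.6, 18.9, 20.3, 172 and 0 CPM in YFP and 4.99, 2.13 and 2.71 CPM in DN.

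Genes lower in every YFP library were high mainly in DN replicate 1. Ltf (chromosome 9, 111019271 to 111042767), the neutrophil granule protein lactoferrin, stood at 2.13, 0.713, 0.63, 1.1 and 0 CPM in YFP and 123, 8.72 and 3.82 CPM in DN (-5.36 ± 1.67). Nlrc3 (chromosome 16, 3945007 to 3976632), an inhibitory NOD-like receptor of lymphocytes and myeloid cells, stood at 11.9, 9.6, 12.2, 0.499 and 11.9 CPM in YFP and 67.9, 15.8 and 16.4 CPM in DN (-1.88 ± 0.89). YFP replicate 5 held almost none of it, while the other 4 YFP libraries lay just under DN replicates 3 and 6. The 11.9 CPM of YFP replicate 6 is 4 reads, so its place under DN replicates 3 and 6 rests on few reads. Il21r (chromosome 7, 125603429 to 125633570), the interleukin-21 receptor, had 75.7, 124, 104, 1.89 and 83.6 CPM in YFP and 313, 218 and 155 CPM in DN (-1.56 ± 0.87).

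A pair of interferon-inducible genes were in the same set. Oas3 (chromosome 5, 120753098 to 120777661), an antiviral oligoadenylate synthetase, stood at 9.87, 11.4, 9.89, 0.299 and 8.96 CPM in YFP and 47.4, 21.1 and 12.5 CPM in DN (-1.75 ± 0.85). Ifi47 (chromosome 11, 49076587 to 49096974), an interferon-induced GTPase, stood at 7.54, 21.4, 20.7, 6.28 and 20.9 CPM in YFP and 62.7, 25.3 and 23.5 CPM in DN (-1.3 ± 0.68). The gap between the highest YFP and the lowest DN library was small for both, 11.4 against 12.5 CPM for Oas3 and 21.4 against 23.5 CPM for Ifi47. In YFP replicate 6 the level of Oas3 was 3 reads and that of Ifi47 was 7. The type I interferon response list as a whole had 7 of 20 members higher and 13 lower, with 1 non-overlapping, which was Oas3, and a median log2 fold change of -0.16. Beside DN replicates 3 and 6 its median was -0.17, with Zbp1 higher in every YFP library, and beside DN replicate 1 it was 0.41, with 2 members higher and 4 lower. Its most abundant members overlapped in the first comparison. Cxcl10, a chemokine for activated T cells, stood at 50.9, 684, 337, 444 and 194 CPM in YFP and 43.3, 823 and 257 CPM in DN. Ifit1 stood at 21.5, 544, 162, 129 and 29.9 CPM in YFP and 22.1, 506 and 61.3 CPM in DN, and Oasl1 at 28, 366, 174, 280 and 113 CPM in YFP and 29.9, 347 and 79.6 CPM in DN. All 3 were low in both libraries numbered 1 and high in YFP replicate 3 and DN replicate 3.

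**Figure D3:**
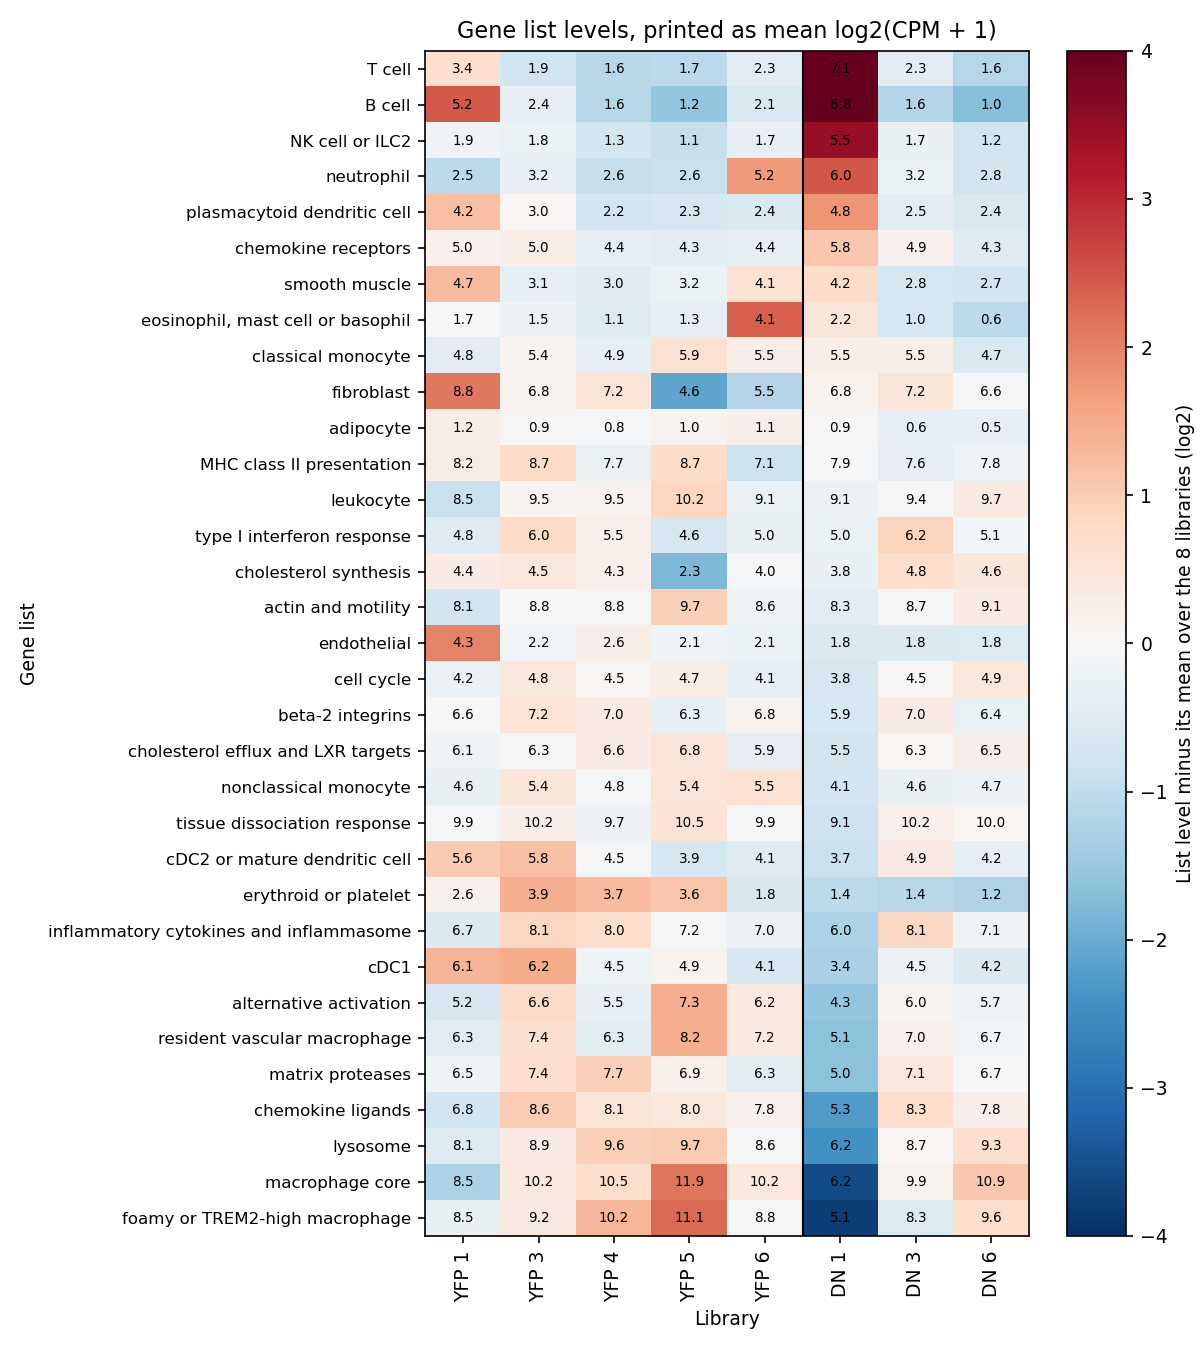
Mean log2(CPM + 1) of each of 33 gene lists in the 5 YFP libraries and the 3 DN libraries, printed in each cell. Colour shows the level minus the mean of its row. DN replicate 1 stands apart in the macrophage, lysosome, T cell, B cell and NK cell rows, YFP replicate 5 in the macrophage and cholesterol synthesis rows, YFP replicate 1 in the endothelial row, and YFP replicate 6 in the neutrophil and mast cell rows.

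Against the libraries labelled DN replicates 3 and 6, which express both reporter genes, the macrophage core list had 11 members with fold changes above 0 and 5 below it (median 0.33). edgeR called 0 of 17143 genes, with 419 (2.44%) at an unadjusted p under 0.05, 413 (2.41%) higher and 6 (0.035%) lower in YFP. DESeq2 called 20 genes higher (0.13% of 15420) and 0 lower, and limma voom 0. YFP replicate 5 held the highest level for 11 of the 20 and DN replicate 1, which is outside this comparison, for 3. Some, such as 0610040F04Rik and Mir1198, were present in YFP replicate 1 (10.6 and 21 CPM) and DN replicate 1 (11.8 and 22.7 CPM). Both were at or near 0 in YFP replicates 3 to 6 and in DN replicates 3 and 6, so such calls rest on YFP replicate 1. Of the 413, YFP replicate 6 held the highest level for 217, YFP replicate 5 for 125 and YFP replicate 1 for 64, so that YFP replicates 3 and 4 together led few of them. The median over all genes was 0.42, and 0.00 over genes at or above 20 CPM, so fold changes of low genes lean upward here. With RLE size factors in place of TMM the median over all genes was 0.68, and blocking on replicate number gave 0.02.

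Of 7233 genes at or above 20 CPM, 67 (0.926%) were higher in every YFP library than in both of these DN libraries and 270 (3.73%) were lower. With RLE size factors these counts were 117 and 137, so the split of 67 against 270 leans on the scaling. Counts of higher genes were 108, 110, 145, 76 and 144 without YFP replicates 1, 3, 4, 5 and 6, and 487 and 1057 without DN replicates 3 and 6. Counts of lower genes were 429, 470 and 408 without YFP replicates 3, 4 and 5, and 1004 and 1823 without DN replicates 3 and 6, and ranged from 320 to 334 without YFP replicates 1 and 6.

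Csf1r, the receptor of the growth factors M-CSF and interleukin-34 that macrophages depend on, was one of the 270. It stood at 474, 2650, 2070, 1340 and 2130 CPM in the YFP libraries, against 4680 and 2740 CPM in DN replicates 3 and 6. All 5 YFP libraries were below both, with a log2 fold change of -1.1 ± 0.55 (SE, edgeR adjusted p = 0.959). Emr1, the F4/80 adhesion receptor of mouse macrophages, was in the same order, at 224, 1100, 1260, 1100 and 1090 CPM in YFP and 1840 and 1530 CPM in DN (-0.82 ± 0.54). Cx3cr1 itself belonged to this set (-1.49 ± 1.09), and so did Cxcl16, a membrane-bound chemokine and scavenger receptor, at 524, 2360, 2290, 1520 and 1250 CPM in YFP and 2970 and 2480 CPM in DN (-0.78 ± 0.64). The margin between YFP replicate 3 and DN replicate 6 was narrow for Csf1r and Cxcl16. With RLE size factors the groups overlapped for Csf1r (highest YFP library 2480 CPM, lowest of the 2 DN libraries 2460 CPM) and for Emr1 (1420 and 1370 CPM), and they stayed apart for Cx3cr1 and Cxcl16.

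Stab1 (chromosome 14, 31139013 to 31168641), the scavenger receptor stabilin-1 of resident macrophages and endothelium, stood at 136, 258, 192, 34.3 and 218 CPM in YFP and 851 and 278 CPM in DN replicates 3 and 6 (-1.76 ± 0.7). Cspg4 (chromosome 9, 56865033 to 56899870), the NG2 proteoglycan of pericytes, stood at 48.1, 34.6, 40.9, 2.29 and 26.9 CPM in YFP and 106 and 64.4 CPM in DN (-1.47 ± 0.97). For both, YFP replicate 5 was far below the other YFP libraries and DN replicate 3 above DN replicate 6. Tmem128 (chromosome 5, 38260185 to 38269634), a transmembrane protein gene, stood at 21.7, 18.2, 21.7, 5.68 and 29.9 CPM in YFP and 89.1 and 59.4 CPM in DN (-1.97 ± 0.76), with DN replicate 1 at 23.3 CPM. Sox7 (chromosome 14, 63943673 to 63950732), a transcription factor of endothelium, stood at 9.82, 22.7, 21.6, 1.1 and 14.9 CPM in YFP and 64.6 and 32.4 CPM in DN (-1.79 ± 1.08).

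In the other direction, Itga2b, the platelet and megakaryocyte integrin CD41, stood at 5.61, 41.3, 23.9, 103 and 2.99 CPM in YFP and 1.39 and 0 CPM in DN replicates 3 and 6 (5.68 ± 2.03). The low end in YFP was again replicate 6, at 1 read. Ibsp (chromosome 5, 104299171 to 104311469), the bone matrix sialoprotein, was high in a single library, with 0.636, 0.19, 159, 0.0997 and 5.97 CPM in YFP and 0.0733 and 0 CPM in DN (9.59 ± 3.47). Cma1 (chromosome 14, 55941451 to 55944675), the mast cell protease chymase, was high only in YFP replicate 6 among these libraries, with 0.367, 0.618, 1.32, 3.79 and 119 CPM in YFP and 0.366 and 0.0734 CPM in DN (6.46 ± 4.21). The genes with the largest differences upward were thus set by different single YFP libraries, replicate 4 for Ibsp and replicate 6 for Cma1.

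**Figure D4:**
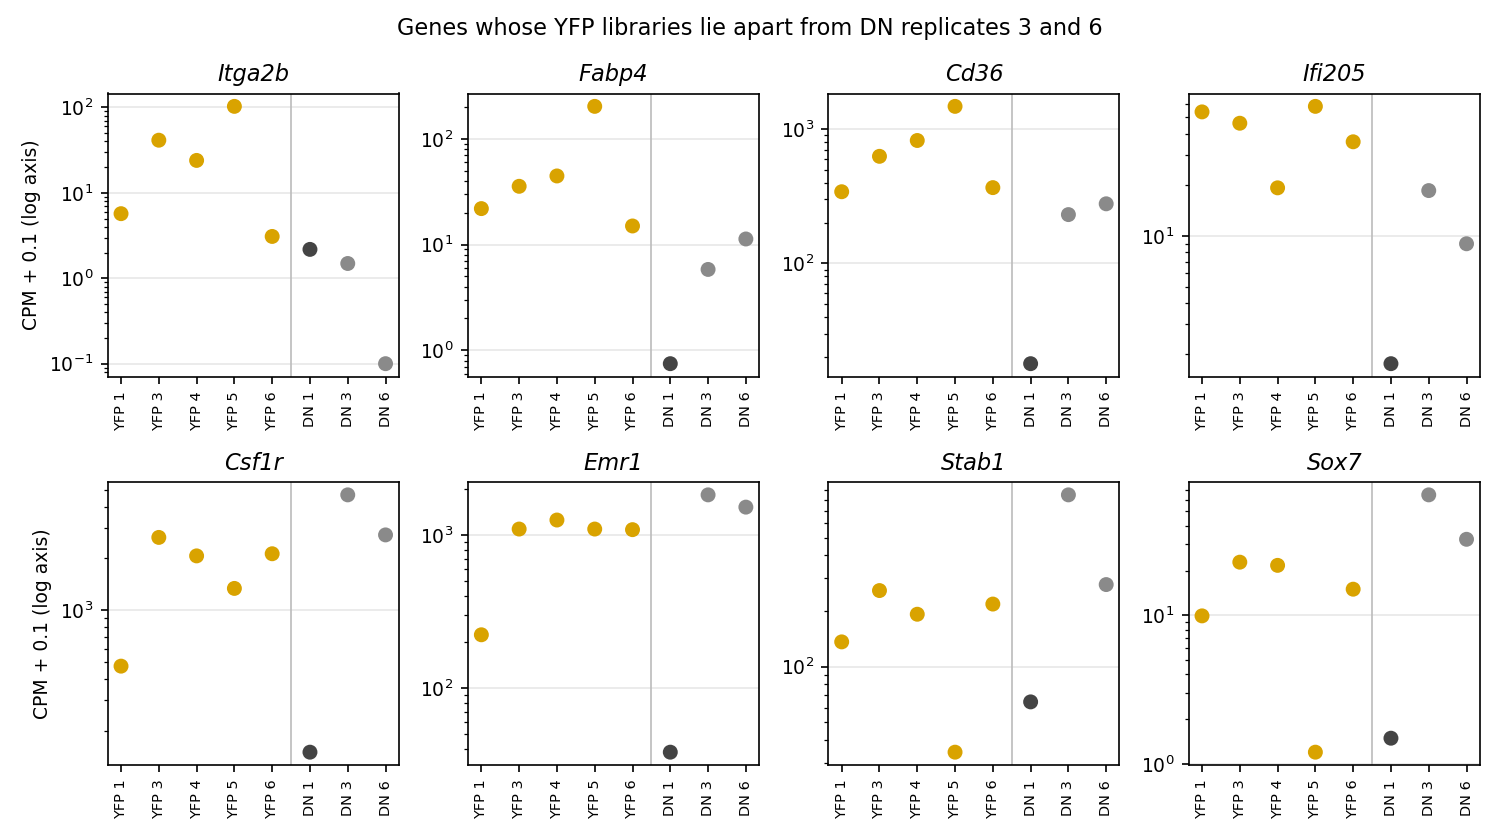
Levels of 8 genes in each YFP and DN library, as CPM + 0.1 on a log axis, YFP left of DN. Itga2b, Fabp4, Cd36 and Ifi205 are higher in all 5 YFP libraries than in all 3 DN libraries. For Itga2b this rests on 1 read in YFP replicate 6 (2.99 CPM, against 2.08 CPM in DN replicate 1). Csf1r, Emr1, Stab1 and Sox7 are lower in all 5 YFP libraries than in DN replicates 3 and 6, though Csf1r and Emr1 overlap with RLE size factors.

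Beside DN replicate 1, among list members at or above 20 CPM, all 5 YFP libraries were higher for all 16 macrophage core genes. They were lower for 18 of 19 T cell, all 12 B cell, 10 of 12 NK cell or ILC2 and 8 of 10 neutrophil genes. Of 7585 genes at or above 20 CPM, 2013 (26.5%) were higher and 1292 (17%) lower in this way. Against 1 library such shares are large for genes in general, and the counts of list members are to be read beside them. edgeR called 0 of 17143 genes, with a smallest adjusted p of 0.221, and 979 (5.71%) had an unadjusted p under 0.05, 622 (3.63%) higher and 357 (2.08%) lower in YFP. DESeq2 called 268 genes higher (3% of 8930) and 11 lower (0.123%), and limma voom 27 higher (0.157%) and 105 lower (0.612%). In this comparison the median over all genes was 0.08, and 0.63 over genes at or above 20 CPM.

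Mmp12 (chromosome 9, 7344381 to 7369499), the macrophage elastase that degrades elastin of the vessel wall, had the smallest adjusted p. It stood at 1540, 3100, 5980, 8940 and 752 CPM in the YFP libraries, against 4.58 CPM in DN replicate 1, a log2 fold change of 9.79 ± 1.8 (SE, edgeR adjusted p = 0.221). In the libraries labelled DN replicates 3 and 6 it stood at 1290 and 2180 CPM, inside the YFP range. It passed edgeR's test in 3 of the other settings, without a filter on low counts (adjusted p = 0.0392), without DP replicates 4 and 5 (0.0443) and without YFP replicates 1 and 6 (0.0225). The last setting also called Gdf15, a stress-induced cytokine (adjusted p = 0.044), and Lpl (0.044), and the fit without DP replicates 4 and 5 also called Gdf15, Cadm1, Cdk18 and Cxcl16, all at 0.0443. Gdf15 stood at 382, 1260, 1350, 2580 and 794 CPM in YFP and 11.4, 1040 and 1340 CPM in DN, and Cdk18, a cyclin-dependent kinase, at 124, 207, 271, 253 and 86.6 CPM in YFP and 5.34, 216 and 229 CPM in DN. All 6 of these genes were high in DN replicates 3 and 6 as well. Cadm1, an adhesion molecule that cDC1 also carry, stood at 60.5, 127, 137, 186 and 56.7 CPM in YFP and 1.25, 65.5 and 103 CPM in DN.

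Mmp13 (chromosome 9, 7272514 to 7283331), a collagenase, stood at 7.22, 222, 231, 266 and 41.8 CPM in YFP and 0.231 CPM in DN replicate 1 (9.34 ± 2.51). Npy (chromosome 6, 49822710 to 49829507), neuropeptide Y, stood at 18.4, 43.5, 166, 482 and 20.9 CPM in YFP and 0.324 CPM in DN replicate 1 (8.8 ± 2.54). Tmem178 (chromosome 17, 80944632 to 81001816), a membrane protein gene, stood at 7.47, 14, 24.2, 41.4 and 23.9 CPM in YFP and 0.0694 CPM in DN replicate 1 (8.18 ± 2.38). In each case YFP replicate 1 was the lowest YFP library, and the edgeR adjusted p was 0.301 to 0.316.

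Of the 5 genes with the largest differences downward, 4 are known from lymphocytes, and Calca is not a lymphocyte marker. Il5 (chromosome 11, 53720794 to 53725106), the cytokine of type 2 innate lymphoid cells and T helper cells that supports eosinophils, stood at 0.0734, 0, 0.063, 0 and 0 CPM in YFP and 29.9 CPM in DN replicate 1 (-9.36 ± 2.0, edgeR adjusted p = 0.271). Cd40lg (chromosome X, 57212143 to 57224042), the T cell ligand that activates B cells and macrophages, stood at 1.03, 0.618, 0.063, 0.0997 and 0 CPM in YFP and 74.6 CPM in DN replicate 1 (-7.33 ± 1.76). Tcf7 (chromosome 11, 52252371 to 52283014), a transcription factor of naive and memory T cells, stood at 0.783, 0.57, 1.2, 0.299 and 8.96 CPM in YFP and 188 CPM in DN replicate 1 (-7.33 ± 1.87). Its 8.96 CPM in YFP replicate 6 is 3 reads. Klrg1 (chromosome 6, 122270596 to 122282882), a lectin receptor of effector lymphocytes, and Calca (chromosome 7, 114631478 to 114636357), the gene of calcitonin and its related peptide CGRP, were each under 1 CPM in all YFP libraries and stood at 38.8 and 39.1 CPM in DN replicate 1 (-7.39 ± 1.97 and -7.39 ± 1.84). In DN replicates 3 and 6 all 5 genes were at 2.79 CPM or less.

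Gene lists were then read member by member, with 463 of 482 entries tested, and in no list and no comparison did a member pass edgeR's test. Non-overlap was counted only for members averaging 20 CPM or more in the higher group. Members below that level could not count, also where a count is given out of all tested members. Median log2 fold changes below are to be read beside the all-gene medians of 0.06 (all DN libraries), 0.42 (DN replicates 3 and 6) and 0.08 (DN replicate 1). Over genes at or above 20 CPM, to which all members of lists such as macrophage core and lysosome belong, these medians were 0.12, 0.00 and 0.63. Lists of abundant genes are to be read beside the latter. The 3 comparisons share the YFP libraries. In bulk samples, fewer cells of a type and less RNA per cell cannot be told apart.

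Macrophage core genes separated DN replicate 1 from all other libraries. All 16 were higher in all 5 YFP libraries than in DN replicate 1 (median log2 fold change 4.85), against 0 higher and 2 lower, Csf1r and Emr1, beside DN replicates 3 and 6 (median 0.33) and none either way over all DN libraries (median 0.89). Lyz2, the lysozyme of myeloid cells, stood at 5960, 13100, 25900, 72900 and 14100 CPM in YFP and 788, 8780 and 25900 CPM in DN. Summed over the list, the level was 14300 to 196000 CPM in YFP and 2680, 34300 and 73800 CPM in DN replicates 1, 3 and 6. Ctss, the protease cathepsin S that trims the MHC class II invariant chain, stood at 1620, 4270, 7940, 22800 and 3850 CPM in YFP and 215, 2590 and 6790 CPM in DN. These sums and levels put DN replicate 1 lowest and YFP replicate 5 highest. C1qb, a chain of the complement initiator C1q made by tissue macrophages, stood at 1090, 3940, 5130, 22100 and 3930 CPM in YFP and 149, 2900 and 8670 CPM in DN. Lgals3, galectin-3, had 1700, 3990, 6840, 31800 and 3710 CPM in YFP and 132, 2440 and 7950 CPM in DN. In all 4 genes YFP replicate 1 lay between DN replicate 1 and the remaining libraries, and YFP replicate 5 was the highest.

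The foamy or TREM2-high macrophage list, of genes of lipid-laden plaque macrophages, had 16 of 17 members higher in every YFP library than in DN replicate 1 (median 5.36), the exception being the proton channel gene Hvcn1 (-0.48 ± 0.77). The non-overlapping members beside DN replicates 3 and 6 were 2, Cd36 and Fabp4 (median 0.72). Spp1, osteopontin, stood at 5510, 8820, 26600, 49900 and 13400 CPM in YFP and 188, 6500 and 28900 CPM in DN. DN replicate 6 was thus above 4 of the 5 YFP libraries for Spp1. Gpnmb, a transmembrane glycoprotein of lysosomes, stood at 1380, 2290, 6120, 11800 and 1730 CPM in YFP and 37.5, 468 and 2180 CPM in DN, and Ctsd, the lysosomal protease cathepsin D, at 3110, 6110, 14100, 20700 and 5760 CPM in YFP and 703, 4160 and 13100 CPM in DN. Trem2, the lipid receptor of these cells, stood at 158, 356, 661, 2240 and 328 CPM in YFP and 6.98, 246 and 902 CPM in DN. Lpl, lipoprotein lipase, stood at 921, 1730, 2940, 6400 and 660 CPM in YFP and 17.6, 655 and 1400 CPM in DN, with the lowest YFP library just above DN replicate 3. Without YFP replicate 5 the list's median beside DN replicates 3 and 6 was 0.05.

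Lysosome genes showed the same contrast between DN libraries. Beside DN replicate 1, 20 of 22 did not overlap and were higher in YFP (median 3.03), and beside DN replicates 3 and 6, 0 did, with 11 members higher, 11 lower and a median of 0.00. Ctsb, cathepsin B, stood at 6180, 13500, 24600, 40300 and 13900 CPM in YFP and 801, 10500 and 22500 CPM in DN. Ctsl, cathepsin L, stood at 1040, 1220, 3310, 8480 and 719 CPM in YFP and 90.5, 565 and 1590 CPM in DN. Lipa, the acid lipase that frees cholesterol from lipoprotein esters in lysosomes, stood at 278, 604, 933, 794 and 305 CPM in YFP and 41.2, 460 and 556 CPM in DN. YFP replicates 1 and 6 were below DN replicates 3 and 6 for Lipa. Ctsz, cathepsin Z, stood at 874, 2480, 3520, 6020 and 1940 CPM in YFP and 264, 2270 and 4020 CPM in DN.

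Resident vascular macrophage genes, which mark the adventitial macrophages present before disease, had 10 of 16 members higher in all YFP libraries than in DN replicate 1 (median 2.39), and 1, Stab1, lower beside DN replicates 3 and 6 (median 0.72). Sepp1, a secreted selenium carrier, stood at 823, 1820, 1460, 3790 and 1840 CPM in YFP and 380, 1990 and 1900 CPM in DN. Folr2, a folate receptor, stood at 139, 223, 373, 2030 and 224 CPM in YFP and 33.5, 97 and 332 CPM in DN, highest in YFP replicate 5. F13a1, the coagulation factor XIII A chain, stood at 206, 918, 184, 142 and 546 CPM in YFP and 167, 776 and 199 CPM in DN. It was high in YFP replicate 3 and DN replicate 3 alike.

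Dendritic cells are the other main bearers of CD11c. Of 12 tested genes of cross-presenting dendritic cells (cDC1), all 12 had fold changes above 0 over all DN libraries (median 1.17), with Ifi205 alone not overlapping. Beside DN replicate 1, 6 of 12 did not overlap and were higher (median 3.15), and beside DN replicates 3 and 6, 2 did, Ifi205 and Itgae (median 1.26). Itgae, the integrin CD103, stood at 63.5, 66.7, 3.21, 57.2 and 5.97 CPM in YFP and 24.4, 2.64 and 2.05 CPM in DN. Its 5.97 CPM in YFP replicate 6 is 2 reads. The most abundant members were less specific to cDC1. Ppt1, a lysosomal thioesterase, stood at 495, 793, 609, 677 and 457 CPM in YFP and 106, 717 and 780 CPM in DN. Irf8, a transcription factor that cDC1 need and other myeloid cells also express, stood at 325, 484, 303, 363 and 227 CPM in YFP and 162, 283 and 330 CPM in DN, and Naaa, a lysosomal amidase, at 193, 281, 145, 433 and 77.6 CPM in YFP and 22.3, 100 and 148 CPM in DN. All 3 were lowest in DN replicate 1. Xcr1, the chemokine receptor that defines cDC1, stood at 40.1, 48.7, 11.3, 0.299 and 2.99 CPM in YFP and 2.75, 9.6 and 3.01 CPM in DN. Clec9a, a receptor for dead cells on cDC1, stood at 22.9, 14.7, 1.2, 0 and 0 CPM in YFP and 0.301, 1.1 and 0.147 CPM in DN. Both defining cDC1 genes were thus highest in YFP replicates 1 and 3, low in YFP replicate 4 and at or near 0 in YFP replicate 5, the library with the most Itgax.

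Genes of cDC2 and mature dendritic cells had 5 of 15 members higher and 3 lower in every YFP library than in DN replicate 1 (median 2.93) and none either way beside DN replicates 3 and 6 (median 1.15). Ccl22, a chemokine of mature dendritic cells, stood at 103, 209, 67, 7.28 and 8.96 CPM in YFP and 0.416, 80.8 and 27.8 CPM in DN. Ccr7, the receptor that guides dendritic cells and lymphocytes to lymph nodes, stood at 324, 250, 80.9, 141 and 11.9 CPM in YFP and 461, 116 and 30.9 CPM in DN. Ccr7 was thus highest in DN replicate 1, where Ccl22 was lowest. The 3 most abundant members are also expressed by macrophages. Sirpa, an inhibitory receptor for CD47, stood at 351, 752, 840, 1010 and 534 CPM in YFP and 72.5, 1090 and 803 CPM in DN, and Tnfsf9, the ligand 4-1BBL, at 179, 1210, 973, 387 and 564 CPM in YFP and 26.7, 1230 and 943 CPM in DN. Mgl2, a lectin, stood at 80.9, 313, 156, 547 and 245 CPM in YFP and 14.6, 230 and 276 CPM in DN. Of 8 tested plasmacytoid dendritic cell genes, 5 were at or above 20 CPM beside DN replicate 1. Of these, 1 was higher and 3 lower in every YFP library (list median -2.26). Beside DN replicates 3 and 6, 2 members reached 20 CPM and none separated the groups (list median 1.26). Spib, a transcription factor shared with B cells, stood at 55.7 CPM in YFP replicate 1 and at 0 to 0.997 CPM in the other YFP libraries. Tcf4, the factor that plasmacytoid dendritic cells need, stood at 119, 111, 121, 24.4 and 77.6 CPM in YFP and 44.7, 113 and 99.2 CPM in DN. Bst2, an antiviral membrane protein that many cells make, stood at 44.1, 64.3, 82.1, 179 and 77.6 CPM in YFP and 35.7, 44.6 and 109 CPM in DN, and Ly6d, which B cells also carry, at 90.7, 2.76, 0.189, 0 and 0 CPM in YFP and 148, 0.88 and 0.44 CPM in DN. Ly6d and Spib thus had the same 2 high libraries, YFP replicate 1 and DN replicate 1.

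MHC class II genes, which present antigen to helper T cells, were led by Cd74, H2-Ab1 and H2-Aa, which were abundant in all 8 libraries, while 1 of the 11 members was at 0 counts in YFP replicate 5 and 1 in YFP replicate 6. Cd74, the invariant chain, stood at 7080, 21200, 13600, 37600 and 9560 CPM in YFP and 5080, 11300 and 18400 CPM in DN. H2-Aa stood at 1860, 4380, 2610, 8580 and 1740 CPM in YFP and 1080, 2310 and 2750 CPM in DN, and H2-Ab1 at 4260, 10200, 5790, 20800 and 4170 CPM in YFP and 1900, 5330 and 7210 CPM in DN. In TMM-scaled CPM both were highest in YFP replicate 5 and lowest in DN replicate 1. As raw counts, YFP replicate 5 held 208428 of H2-Ab1 and 85999 of H2-Aa. YFP replicate 3, with a lower total count, held more (215465 and 92063). Beside DN replicate 1, 7 of 11 were higher in every YFP library (median 1.82), while 3, H2-Oa, H2-Ob and H2-DMb2, were lower. H2-Ob, a subunit of the peptide-loading inhibitor of B cells and some dendritic cells, stood at 116, 48.6, 12, 23.1 and 8.96 CPM in YFP and 225, 15.4 and 12 CPM in DN. Beside DN replicates 3 and 6 all 11 had fold changes above 0 and none separated the groups (median 0.75). Copies of class II genes are similar in sequence, and how reads that fit several copies were counted is not given in the sources used here.

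Monocyte lists gave no common direction. Of 12 classical monocyte genes, 2 were higher and 3 lower in every YFP library than in DN replicate 1 (median 0.15), and none separated the groups beside DN replicates 3 and 6 (median 0.28). Ccr2, which draws monocytes into the plaque, stood at 95.6, 301, 138, 509 and 203 CPM in YFP and 105, 413 and 163 CPM in DN, and the groups overlapped. Lyz1, whose reads may be shared with its near-identical neighbour Lyz2, stood at 514, 1300, 2810, 9320 and 1130 CPM in YFP and 61.2, 807 and 2400 CPM in DN. Fn1, fibronectin, stood at 1150, 1020, 1060, 2100 and 349 CPM in YFP and 89.9, 2040 and 752 CPM in DN. The nonclassical monocyte list had 4 of 13 members higher and 2 lower than DN replicate 1 (median 0.73), and 2 higher, Cd36 and Fabp4, and 1 lower, Cx3cr1, beside DN replicates 3 and 6 (median 1.08). Nr4a1, the nuclear receptor that nonclassical monocytes need, stood at 1510, 1340, 806, 1500 and 919 CPM in YFP and 2650, 1160 and 840 CPM in DN. It was highest in DN replicate 1. Gngt2, a G protein subunit, stood at 37, 74.3, 151, 847 and 128 CPM in YFP and 16.2, 35.5 and 151 CPM in DN.

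T cell genes marked DN replicate 1. All 19 tested members had fold changes below 0 over all DN libraries (median -3.83), and 18 of 19 were lower in every YFP library than in DN replicate 1 (median -5.39). Cd3e stood at 19.7, 1.95, 0.756, 1.5 and 2.99 CPM in YFP and 279, 3.08 and 1.03 CPM in DN. Lck, the kinase that starts T cell receptor signalling, stood at 25.7, 3.9, 1.95, 0 and 2.99 CPM in YFP and 387, 5.13 and 2.35 CPM in DN. Both the helper and the cytotoxic coreceptor took part, with Cd4 at 10.2, 2.57, 2.52, 0.897 and 5.97 CPM in YFP and 65.2, 4.25 and 4.55 CPM in DN. Cd8a stood at 7.1, 0, 0.189, 0.399 and 2.99 CPM in YFP and 77.4, 2.13 and 0.294 CPM in DN. The exception was Il7r, the interleukin-7 receptor, at 77, 239, 308, 176 and 167 CPM in YFP and 219, 279 and 141 CPM in DN, high in libraries with few T cell transcripts. YFP replicate 5 was uneven across the list, with Lat, an adaptor of the T cell receptor that platelets also carry, at 10.4, 4.42, 0.441, 158 and 5.97 CPM in YFP and 169, 2.2 and 0.954 CPM in DN. The T cell list had, beside DN replicates 3 and 6, a median of 0.75, and none of its 4 members at or above 20 CPM separated the groups. Without DN replicate 1 the median over all remaining DN libraries was 0.67, and over YFP replicates 3 to 6 and DN replicates 3 and 6 alone -0.32.

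B cell genes were high in DN replicate 1 and, at a lower level, in YFP replicate 1. Cd79a, a signalling chain of the B cell receptor, stood at 178, 5.8, 3.59, 0.0997 and 0 CPM in YFP and 449, 0.366 and 0.147 CPM in DN. Cd22, an inhibitory receptor of B cells, stood at 154, 51.8, 64.2, 1.2 and 11.9 CPM in YFP and 313, 24.4 and 57.5 CPM in DN, and was also present in YFP replicates 3 and 4 and DN replicates 3 and 6. The list summed to 825, 113, 85.5, 115 and 74.6 CPM in YFP and 2260, 55.1 and 73.2 CPM in DN. Of 13 tested members, 12 were at or above 20 CPM, and all 12 were lower in every YFP library than in DN replicate 1 (list median -3.39). Beside DN replicates 3 and 6 all 13 had fold changes above 0 with a median of 4.21, which was 1.74 without YFP replicate 1. None of the 5 members at or above 20 CPM there separated the groups. YFP replicate 1 therefore also held B cell transcripts, and their part in its other values was not tested.

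The NK cell and type 2 innate lymphoid cell list had 15 tested members, 12 of them at or above 20 CPM beside DN replicate 1. Of these 12, 10 were lower in every YFP library than in DN replicate 1 (list median -5.39). Nkg7, a cytotoxic granule protein, stood at 4.11, 1.33, 0.315, 0.299 and 2.99 CPM in YFP and 226, 1.61 and 1.32 CPM in DN. Gata3, the transcription factor of type 2 lymphoid cells and T helper cells, stood at 3.92, 1.19, 0, 0.0997 and 0 CPM in YFP and 105, 1.69 and 0.587 CPM in DN. Rora, a factor that type 2 innate lymphoid cells need, stood at 25.4, 23.7, 28.8, 1.89 and 5.97 CPM in YFP and 139, 33.6 and 13.7 CPM in DN. The median beside DN replicates 3 and 6 was 0.2. Areg, amphiregulin, went another way, at 8.62, 94, 78.7, 6.88 and 44.8 CPM in YFP and 40, 69.9 and 79.8 CPM in DN, so the list does not read lymphoid cells by every member.

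Granulocyte genes were high in DN replicate 1 and in YFP replicate 6. The neutrophil list summed to 118, 324, 197, 306 and 1200 CPM in YFP and 2180, 261 and 180 CPM in DN. Of 13 tested members, 10 were at or above 20 CPM, and 8 of these were lower in every YFP library than in DN replicate 1. The list's median was -1.95 there and 0.87 beside DN replicates 3 and 6. S100a9, a subunit of calprotectin, stood at 7.37, 36.2, 19, 7.28 and 102 CPM in YFP and 558, 13.6 and 14.3 CPM in DN. Retnlg, a neutrophil-secreted resistin-like protein, stood at 1.49, 42.6, 12, 194 and 454 CPM in YFP and 171, 7.7 and 19.1 CPM in DN, highest in YFP replicate 6. Csf3r, the receptor of G-CSF, stood at 43.8, 134, 93.6, 30.7 and 86.6 CPM in YFP and 276, 142 and 91 CPM in DN. The eosinophil, mast cell and basophil list summed to 86.4, 84.1, 41.5, 29.6 and 508 CPM in YFP and 436, 42.9 and 13.3 CPM in DN. Its members in YFP replicate 6 were mast cell proteases such as Cma1 and Cpa3, and Cpa3 stood at 0.0245, 0.665, 1.07, 2.09 and 74.6 CPM in YFP and 0.162, 0.147 and 0.587 CPM in DN. Hdc, the histamine-forming enzyme, stood at 21.5, 42.9, 28.9, 1.4 and 50.8 CPM in YFP and 369, 28.3 and 6.6 CPM in DN, and led the list in DN replicate 1. Kit, the stem cell factor receptor of mast cells and progenitors, stood at 35.8, 25.8, 0.882, 0.897 and 5.97 CPM in YFP and 35.2, 9.09 and 0.0734 CPM in DN. Its level in YFP replicate 6 was 2 reads, so Kit and the proteases were not high in the same libraries. The list's median over 13 tested members was -0.53 beside DN replicate 1, where 1 of the 3 members at or above 20 CPM, Hdc, did not overlap. Beside DN replicates 3 and 6 the median was 4.28, which was 2.41 without YFP replicate 6. What mast cell and neutrophil transcripts contribute to the values of YFP replicate 6 was not tested.

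A CD45 sort should leave out the cells of the vessel wall, yet their transcripts were present in all libraries. The fibroblast list summed to 13900, 3900, 6150, 1820 and 1670 CPM in YFP and 3340, 5780 and 4180 CPM in DN, highest in YFP replicate 1, with no member that separated the groups in any comparison (medians 0.45 over all DN libraries, 0.5 and 0.66 beside DN replicates 3 and 6 and DN replicate 1). Col3a1, collagen III, stood at 3000, 908, 1270, 10.2 and 209 CPM in YFP and 690, 2080 and 1090 CPM in DN. Gsn, the actin-severing protein gelsolin that many cells make, stood at 2680, 1290, 2060, 780 and 782 CPM in YFP and 1060, 1300 and 1640 CPM in DN. Dcn, decorin, stood at 2260, 618, 1150, 350 and 245 CPM in YFP and 479, 677 and 462 CPM in DN. Thus YFP replicate 5, richest in macrophage transcripts, was poorest in Col3a1.

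Smooth muscle genes had 2 of 12 members, Acta2 and Myl9, higher in all 5 YFP libraries than in DN replicates 3 and 6 (median 1.79) and none that separated the groups beside DN replicate 1 (median 0.01) or over all DN libraries (median 0.65). Acta2, smooth muscle actin, stood at 251, 58.5, 59.4, 290 and 74.6 CPM in YFP and 147, 29.5 and 55.3 CPM in DN. YFP replicates 3 and 4 were only slightly above DN replicate 6. Myl9, a myosin light chain, stood at 77.1, 35.8, 36, 82.9 and 102 CPM in YFP and 51.9, 11.1 and 27 CPM in DN, and Myh11, the smooth muscle myosin heavy chain, at 126, 32.9, 8.5, 0.897 and 26.9 CPM in YFP and 68.3, 29.2 and 5.58 CPM in DN. YFP replicate 5 was high in Acta2 and nearly without Myh11. The endothelial list summed to 408, 100, 116, 255 and 95.5 CPM in YFP and 79.2, 67.2 and 93.4 CPM in DN. Its median over 12 members was 1.83 over all DN libraries, 2.38 beside DN replicates 3 and 6 and 2.09 beside DN replicate 1. Of the 3 members at or above 20 CPM, 0, 1 and 2 did not overlap in these comparisons. Without YFP replicate 1 these medians were 0.29, 1.04 and 0.77. Pecam1, the adhesion molecule CD31 of endothelium, platelets and some leukocytes, stood at 75.8, 22.9, 22, 90.4 and 29.9 CPM in YFP and 53, 8.65 and 5.58 CPM in DN. Vwf, von Willebrand factor, stood at 95.9, 27.8, 21.2, 47.4 and 8.96 CPM in YFP and 3.91, 10.4 and 7.7 CPM in DN, and Eng, the co-receptor endoglin that macrophages also carry, at 69.3, 31.5, 42.3, 52.3 and 35.8 CPM in YFP and 12.8, 36 and 64.9 CPM in DN. Both were higher in every YFP library than in DN replicate 1. Cdh5, the endothelial VE-cadherin, stood at 13, 0.285, 1.64, 0.199 and 0 CPM in YFP and 0.856, 0.586 and 0.367 CPM in DN. Nos3 and Plvap, which led the comparison with all DN libraries, were high in YFP replicate 5 where Cdh5 was near 0, so the endothelial genes did not go together there. In YFP replicate 1, by contrast, Cdh5, Vwf and Plvap were all higher than in YFP replicates 3 and 4, and the part of endothelial transcripts in its values was not tested.

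The erythroid and platelet list had all 7 tested members above 0 in every comparison (medians 3.81, 4.25 and 4.03 over all DN libraries, DN replicates 3 and 6 and DN replicate 1), with Itga2b not overlapping in all 3 and Pf4 beside DN replicate 1. Where DN replicate 1 entered, the separation of Itga2b rested on 1 read in YFP replicate 6 (2.99 CPM, against 2.08 CPM in DN replicate 1). Pf4, platelet factor 4, which resident macrophages also make, stood at 50.9, 118, 65.7, 1250 and 218 CPM in YFP and 27.2, 58.3 and 118 CPM in DN. Gp1bb, a subunit of the platelet receptor for von Willebrand factor, stood at 1.71, 11.5, 6.23, 63.3 and 0 CPM in YFP and 1.04, 0.0733 and 0 CPM in DN. Ppbp, a platelet chemokine, stood at 4.46, 36.5, 24.2, 0.199 and 0 CPM in YFP and 0.0925, 2.42 and 0.44 CPM in DN. YFP replicates 3 and 4 carried Ppbp, Gp1bb and Itga2b together, whereas YFP replicate 5 carried Itga2b and Gp1bb with almost no Ppbp. The adipocyte list, of 9 tested genes, was low apart from Fabp4, with Plin4 at 14.9 CPM (5 reads) in YFP replicate 6 and 3.86 CPM or less elsewhere and Ucp1 at 2.99 CPM or less in every library, with medians of -0.31, 1.77 and -1.53 in the same 3 comparisons.

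Lipid metabolism was read through both arms of cholesterol handling. Of 12 genes of cholesterol efflux and LXR targets, 6 were higher and 1, Scd1, lower in every YFP library than in DN replicate 1 (median 1.13), and 1, Srebf1, was lower beside DN replicates 3 and 6 (median 0.21). Abca1, the transporter that loads cholesterol onto nascent HDL, stood at 357, 287, 235, 187 and 200 CPM in YFP and 123, 662 and 165 CPM in DN. Abcg1, its partner for mature HDL, stood at 130, 112, 171, 675 and 104 CPM in YFP and 69, 119 and 171 CPM in DN. Nceh1, which hydrolyses cholesterol esters, stood at 92, 221, 293, 489 and 116 CPM in YFP and 30.9, 260 and 195 CPM in DN. In TMM-scaled CPM DN replicate 1 was lowest for all 3, and YFP replicate 5 highest for Abcg1 and Nceh1. These ranks lean on the scaling, as Abca1 had 5308 raw counts in DN replicate 1 and 1880 in YFP replicate 5. Genes of cholesterol synthesis had 13 of 18 members with fold changes below 0 over all DN libraries (median -0.42) and 15 of 18 beside DN replicates 3 and 6 (median -0.61, with Sqle not overlapping), and 13 of 18 above 0 beside DN replicate 1 (median 0.67, with 2 members not overlapping). Srebf2, the factor that drives these genes, stood at 100, 94.8, 36.3, 3.19 and 8.96 CPM in YFP and 71.4, 118 and 38.3 CPM in DN. YFP replicate 5 was almost without Srebf2, and the median beside DN replicates 3 and 6 was -0.31 without that library.

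Matrix proteases had 10 of 15 members higher and 1, Mmp9, lower in every YFP library than in DN replicate 1 (median 2.19), and none that separated the groups beside DN replicates 3 and 6 (median 0.28). Besides Mmp12 and Mmp13, Ctsk, the collagen-degrading cathepsin K, stood at 448, 438, 1380, 1780 and 152 CPM in YFP and 21.5, 128 and 407 CPM in DN. Timp2, an inhibitor of these enzymes, stood at 1150, 1120, 1630, 2930 and 767 CPM in YFP and 224, 1200 and 1480 CPM in DN. Adam8, a membrane protease of myeloid cells, stood at 595, 828, 1330, 1650 and 519 CPM in YFP and 239, 740 and 1020 CPM in DN. Mmp9, the gelatinase that neutrophils store, stood at 0.997 to 53.2 CPM in YFP, against 236 CPM in DN replicate 1.

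Chemokine ligands separated DN replicate 1 from the YFP libraries in the upward direction for 10 of 17 genes and downward for 1, Ccl5 (median 3.58). Only Cxcl16 did not overlap beside DN replicates 3 and 6 (median -0.07). Cxcl2, which attracts neutrophils, stood at 667, 4340, 3450, 3910 and 3050 CPM in YFP and 702, 3680 and 2800 CPM in DN. Ccl6 stood at 479, 1310, 1130, 11000 and 1390 CPM in YFP and 255, 471 and 804 CPM in DN. Ccl4, an inflammatory chemokine, stood at 260, 4570, 2170, 3250 and 1740 CPM in YFP and 285, 4000 and 2170 CPM in DN. For Cxcl2 and Ccl4 YFP replicate 1 was about as low as DN replicate 1. Ccl5, made by T and NK cells, stood at 7.61, 72.7, 24.4, 21 and 5.97 CPM in YFP and 223, 34.4 and 10.8 CPM in DN.

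Chemokine receptors had 1 of 12 members higher and 5 lower in every YFP library than in DN replicate 1 (median -0.69), and 1, Cx3cr1, lower beside DN replicates 3 and 6 (median 0.64). Cxcr6, the receptor of Cxcl16 on T cells and innate lymphoid cells, stood at 40.5, 10.1, 4.16, 0.299 and 0 CPM in YFP and 486, 9.09 and 4.4 CPM in DN. Its ligand gene Cxcl16 was at 524 to 2360 CPM in the YFP libraries and at 26.9 CPM in DN replicate 1. Receptor and ligand were thus high in different libraries. Ccr1 stood at 68.5, 199, 243, 288 and 224 CPM in YFP and 92.4, 145 and 147 CPM in DN.

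Inflammatory cytokine and inflammasome genes had 6 of 14 members higher in every YFP library than in DN replicate 1 (median 2.0) and none that separated the groups beside DN replicates 3 and 6 (median -0.25). Il1b stood at 755, 4130, 2620, 1580 and 1560 CPM in YFP and 682, 3080 and 1990 CPM in DN. Il1rn, the receptor antagonist of the same cytokine, stood at 280, 3040, 2930, 1340 and 1570 CPM in YFP and 420, 3120 and 1660 CPM in DN. Tnfaip3, a brake on NF-kB, stood at 945, 3140, 1960, 459 and 1010 CPM in YFP and 2540, 4530 and 1050 CPM in DN. Il1b and Il1rn were lowest in both libraries numbered 1. Of the alternative activation list, 7 of 11 were higher in every YFP library than in DN replicate 1 (median 2.61), and Retnla alone beside DN replicates 3 and 6 (median 0.09). Il4ra, the interleukin-4 receptor chain, stood at 263, 565, 445, 314 and 290 CPM in YFP and 386, 907 and 493 CPM in DN, and Mrc1, the mannose receptor, at 137, 335, 127, 197 and 257 CPM in YFP and 34.4, 535 and 132 CPM in DN.

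Cell motility was read because the series title speaks of macrophages that move. Of 22 actin and motility genes, 8 were higher and 3, Was, Fmnl1 and Dock2, lower in every YFP library than in DN replicate 1 (median 1.15), and 2, Actr3 and Fmnl1, were lower beside DN replicates 3 and 6 (median -0.00). Fmnl1, a formin of leukocytes, was lower in all YFP libraries than in all DN libraries, at 108, 117, 92.1, 126 and 80.6 CPM in YFP and 228, 127 and 179 CPM in DN (-0.76 ± 0.48). The gap between YFP replicate 5 and DN replicate 3 was 126 against 127 CPM. Actb, beta-actin, stood at 1230, 1780, 1770, 6040 and 1480 CPM in YFP and 1290, 2330 and 2740 CPM in DN, and overlapped in every comparison. Actg1 stood at 2400, 4680, 4730, 8340 and 3130 CPM in YFP and 2240, 4470 and 6030 CPM in DN. Lcp1, the actin bundler L-plastin of leukocytes, stood at 1230, 4170, 3860, 2960 and 2440 CPM in YFP and 1110, 5570 and 3700 CPM in DN. Of the 5 beta-2 integrin genes, 3 were higher and 1, Itgal, lower than in DN replicate 1 (median 1.3, and 0.53 beside DN replicates 3 and 6). Itgb2 stood at 599, 1370, 1910, 1260 and 893 CPM in YFP and 489, 1360 and 1480 CPM in DN, and Itgam, CD11b, at 182, 697, 530, 782 and 382 CPM in YFP and 126, 1260 and 448 CPM in DN. Itgal, the alpha chain of LFA-1 on lymphocytes, stood at 90.2, 56.7, 41.1, 1.2 and 77.6 CPM in YFP and 372, 43.4 and 18 CPM in DN.

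Cell cycle genes had 2 of 20 members higher and 1 lower in every YFP library than in DN replicate 1 (median 1.06), and 1, Mcm5, lower beside DN replicates 3 and 6 (median -0.01). Mcm3, a subunit of the replicative helicase, stood at 57.8, 82.6, 70.5, 294 and 59.7 CPM in YFP and 55.5, 114 and 95 CPM in DN. Mcm6, another subunit, stood at 81.7, 84.6, 95.9, 149 and 74.6 CPM in YFP and 90.7, 121 and 132 CPM in DN, and Stmn1, a microtubule-binding protein of dividing cells, at 25.3, 83.9, 107, 594 and 104 CPM in YFP and 37.1, 59.5 and 150 CPM in DN. In TMM-scaled CPM YFP replicate 5 was highest for all 3, though Mcm6 had 1496 raw counts there and 3922 in DN replicate 1. Mki67, the proliferation antigen Ki-67, stood at 52.3, 38.9, 17.6, 127 and 47.8 CPM in YFP and 21.2, 34 and 23 CPM in DN. Genes induced by enzymatic dissociation of tissue had 10 of 20 members higher in every YFP library than in DN replicate 1 (median 1.17) and 1, Atf3, lower beside DN replicates 3 and 6 (median 0.05). Hspa8 stood at 4030, 6300, 5850, 7660 and 5020 CPM in YFP and 3330, 6110 and 6540 CPM in DN, and Dusp1 at 1690, 5730, 4140, 7330 and 5320 CPM in YFP and 1720, 6450 and 6940 CPM in DN. Junb stood at 2200, 4150, 3330, 6230 and 3470 CPM in YFP and 3380, 3520 and 4900 CPM in DN, and the groups overlapped. The part of handling in the other differences from DN replicate 1 was not tested. General leukocyte genes had 2 of 10 members higher than DN replicate 1 (median 0.69) and 1, Vav1, lower beside DN replicates 3 and 6 (median -0.25). Laptm5, a lysosomal protein of blood cells, stood at 1010, 2340, 2580, 3180 and 1810 CPM in YFP and 1090, 2160 and 4200 CPM in DN.

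**Figure D5:**
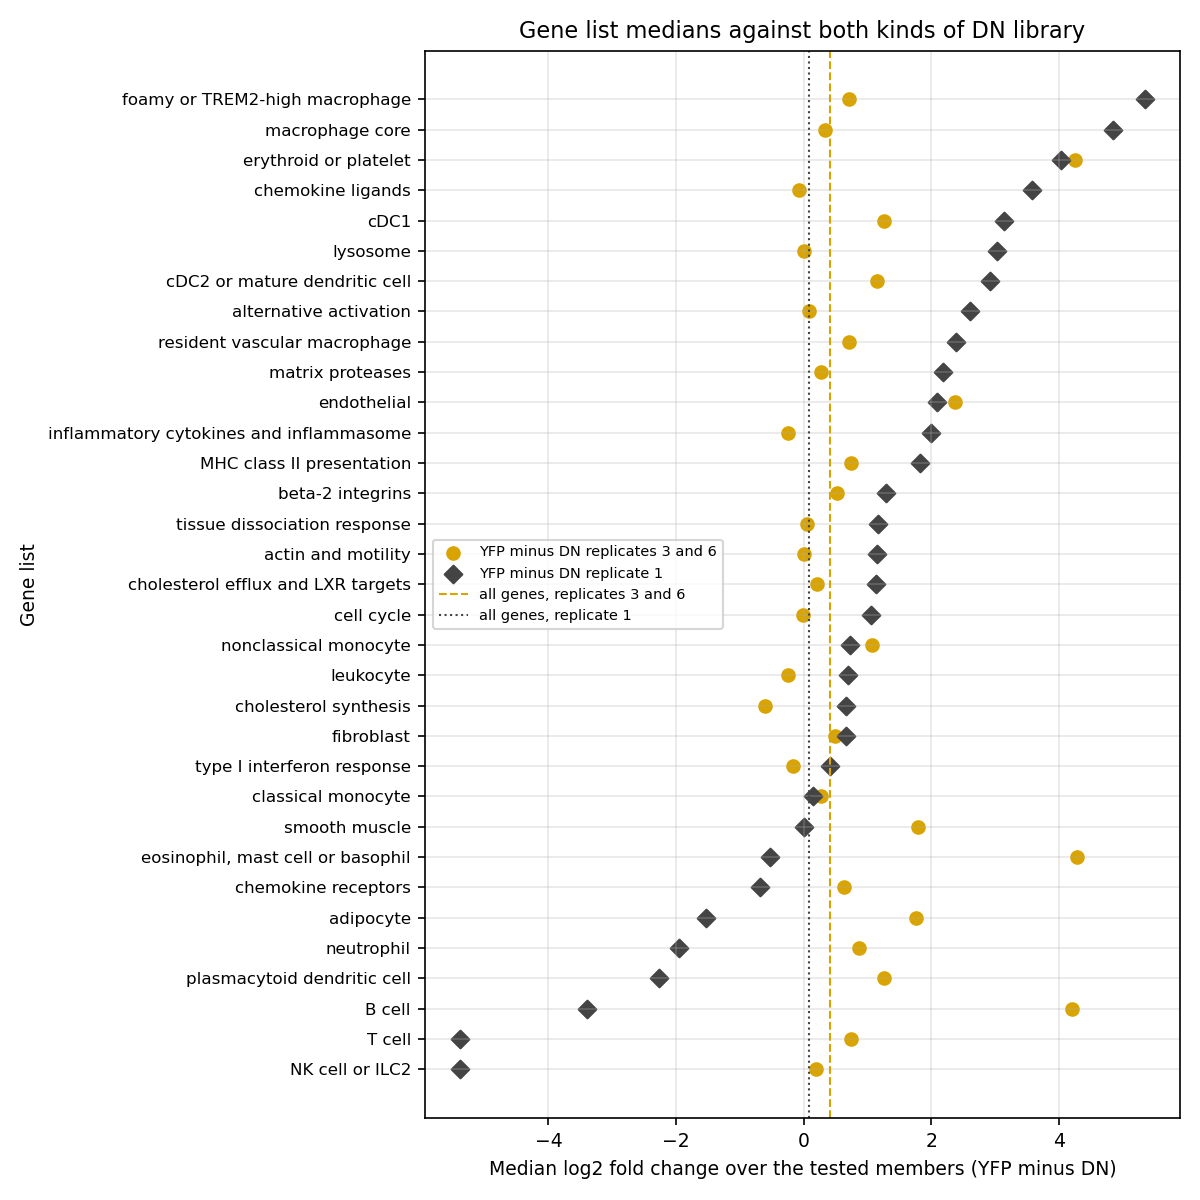
Median log2 fold change (YFP minus DN) of each of the 33 lists beside DN replicates 3 and 6 (circles) and beside DN replicate 1 (diamonds), with a dashed and a dotted line at the medians over all tested genes (0.42 and 0.08). Over genes at or above 20 CPM these medians were 0.00 and 0.63, which are not drawn. The macrophage, foamy macrophage and lysosome lists lie near 0 to 1 beside DN replicates 3 and 6 and at 3.03 to 5.36 beside DN replicate 1, and the T cell and NK cell lists lie at -5.39 beside DN replicate 1.

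Libraries numbered 1 held more detected genes than those numbered 3 to 6, so each list was also compared within these number sets. In YFP replicate 1 minus DN replicate 1, the mean log2(CPM + 1) of the macrophage core list differed by 2.34, of the foamy list by 3.46, of the lysosome list by 1.89, of the T cell list by -3.68, of the NK cell list by -3.62 and of the neutrophil list by -3.53. In YFP replicates 3 to 6 minus DN replicates 3 and 6 the same lists differed by 0.31, 0.89, 0.18, -0.05, -0.02 and 0.41. The actin and motility, leukocyte and classical monocyte lists differed by -0.26, -0.66 and -0.66 in YFP replicate 1 minus DN replicate 1. Among libraries numbered 1 and 2 only, the median log2 fold change of the macrophage core list was 2.62, against 4.85 over all YFP libraries, and that of the T cell list -3.95, against -5.39. In 4 of the 33 lists the median beside DN replicate 1 was below 0 there and above 0 over all YFP libraries: actin and motility (-0.15, against 1.15), leukocyte (-0.83, against 0.69), classical monocyte (-0.45, against 0.15) and type I interferon response (-0.15, against 0.41). Only 1 DN library carries the number 1, so the sort gate of DN replicate 1 and the number set cannot be told apart. In the fit on libraries numbered 1 and 2 only, YFP replicate 1 and DN replicate 1 each stood alone. The spread there was taken from the GFP and DP libraries of those numbers. That fit therefore compares single libraries and not the sorts, and its calls are not given.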

How the data were processed

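RNA from sorted cells was amplified with SMART-seq v4 and made into libraries with Nextera XT, without molecular identifiers, per the labels' protocols. The authors deposited whole-number read counts per gene symbol for 18 libraries. Per the submitters' processing notes the build was mm10, with HTSeq 0.7.1, TopHat 1.4.1 and SAMtools among the tools. Annotation and strand setting are not given in the sources used here. Overlapping or antisense genes, and near-identical copies such as Lyz1 and Lyz2 or Hspa1a and Hspa1b, may therefore share reads.

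From the counts, genes were filtered with filterByExpr, leaving 17143 of 23337, scaled by TMM and fitted over all 18 libraries with edgeR 4.0.16 (R 4.3.3, robust quasi-likelihood test, Benjamini-Hochberg over all tested genes, threshold 0.05). The 3 comparisons were YFP against all DN libraries, against DN replicates 3 and 6, and against DN replicate 1, the last pair with DN replicate 1 given a mean of its own. CPM are per effective library size. The SE given with edgeR fold changes is the absolute log2 fold change divided by the square root of the test's F statistic. It is therefore derived from the test and not estimated by the fit itself. A gene was called not overlapping where every library of a group exceeded every library of the other, given an average of 20 CPM or more in the group that was higher. The fit was also run on simulated counts with known changes. The outcome is not given here, so how large a difference it could call in these libraries is not shown. DESeq2 1.42.0, limma voom 3.58.1, RLE scaling, no filter and omitted libraries were the alternatives. Gene coordinates came from GENCODE vM21 and promoter windows from RefSeq.

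The comparison, the 33 gene lists and the tests were chosen with earlier results of these data known. Genes were named where they had the largest log2 fold changes past the threshold, or, where too few passed, the 5 largest among genes not overlapping in each direction. Itgax, Cx3cr1, Apoe, Ptprc and the 3 most abundant members of each list were always named. Other members were named after their values were seen. Predicted genes, pseudogenes such as those of ribosomal proteins, and immunoglobulin and T cell receptor segments were left out of this rule. Of 482 list entries 471 matched a symbol in the table. No library pair was a duplicate: the smallest chi-square per degree of freedom between YFP or DN libraries was 16.66.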

Additional observations from a re-analysis of the deposited data

Results flagged for a closer look

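Single YFP libraries stood far from the other 4 in 15 of the 62 levels examined (Dixon's gap over range above 0.71, on log2(CPM + 1)). Chance alone would set apart about 1 in 20 groups, but that rate does not hold for genes named for large differences, which 1 library often sets, so the 15 cannot be read against it.

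YFP replicate 5 was the high library for Apoe (7.71, nearest other 4.8), Chrna5 (6.78, nearest 1.99) and Retnla (13.89, nearest 9.5). It was the low library for the cholesterol synthesis list (mean level 2.31, nearest 4.01), Nlrc3 (0.58, nearest 3.41), Oas3 (0.38, nearest 3.32), Il21r (1.53, nearest 6.26) and Cspg4 (1.72, nearest 4.8).

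YFP replicate 6, the shallowest library, was high for the neutrophil list (5.24, nearest 3.21), the eosinophil, mast cell or basophil list (4.07, nearest 1.71), Cma1 (6.91, nearest 2.26) and Tcf7 (3.32, nearest 1.14). YFP replicate 1 was high for the endothelial list (4.31, nearest 2.57), Klrg1 (0.69, nearest 0.19) and Calca (0.87, nearest 0.0).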

How the results depend on the processing

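edgeR called 0 genes in all 3 comparisons, also without each YFP library in turn and, in the first 2 comparisons, without each DN library they use. DESeq2 called 11 genes higher in YFP than in all DN libraries, 20 higher than in DN replicates 3 and 6, and 268 higher and 11 lower than in DN replicate 1. For DN replicate 1, limma voom called 27 higher and 105 lower, the fit on libraries numbered 1 and 2 only 1129 and 678, and the fit without a low-count filter 1 higher. Chosen after seeing the data, the fits without DP replicates 4 and 5 and without both YFP replicates 1 and 6 called 5 and 3 higher.

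Counts of genes not overlapping, higher and lower in YFP, ranged with 1 library left out from 22 to 414 and from 74 to 397 (all DN libraries), from 76 to 1057 and from 320 to 1823 (DN replicates 3 and 6), and from 2073 to 2656 and from 1337 to 1785 (DN replicate 1). Without both YFP replicates 5 and 6 they were 89 and 110, 186 and 526, and 3037 and 1949, and with RLE size factors, beside DN replicates 3 and 6, 117 and 137. These alternatives were also added after seeing the data. Fewer libraries make non-overlap easier by construction, and the cause of the other shifts was not tested.

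Fold changes of the named genes kept their sign in all 166, 156 and 132 values under the alternatives. These genes were chosen because their libraries did not overlap between the groups. Leaving libraries out could therefore hardly reverse a sign, and the kept signs are no test of robustness. In the first 2 comparisons 3 and 2 of the values passed the threshold, with smallest adjusted p of 0.00144 and 2.82e-05, both from DESeq2. Beside DN replicate 1, a single library, more of the values passed than in either of these comparisons. Deviations of same-numbered YFP and DN libraries correlated at 0.494, 0.501 and, for number 6 with its shallow YFP library, -0.0587. The first 2 values are the highest of all 15 pairs, but as the last is not over 0.1 the numbers were not taken as pairs. With the replicate number as a block edgeR called 0 genes, and the median over all genes beside DN replicates 3 and 6 was 0.02, against 0.42. Of the DN libraries, only replicate 1 was low in the transcripts of both reporter genes. In YFP replicate 6, 1 read is 2.99 CPM, so low genes there were not resolved.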
